A study of Bos taurus with 15 samples.

Results

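Across 15 cattle whose biceps brachii muscle was profiled on Agilent bovine arrays, 11 genes rose and fell from animal to animal with PRM1, the protamine gene that packs sperm DNA. They are DNAAF1, GSTT4, SOCS7, SPATA6, HDGFL1, LRRC23, SPATA21, RGS22, LYPD4, SPATA3 and FATE1, out of 15419 named genes on the array, each with 1 qualifying probe out of 21475 probes. Genes were chosen by 3 conditions: a gene was taken when its probe had values on all 15 arrays, a Pearson r of 0.9 or more with the PRM1 probe over those arrays, and at least 4 log2 units between its highest and lowest animal. A further 19 genes, most of them well known in sperm formation, were left out by name, among them PRM1 itself, TNP1 and ODF2. Of 14324 probes with values on all arrays, 21 passed both thresholds. They comprised the 11 probes described here, 9 of genes left out by name (PRM1 included) and 1 without a gene name.

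The study set 7 control animals against 8 animals that received the glucocorticoid drug prednisolone orally, 30 mg per head each day over 35 days, and gave each animal 1 array. The series title calls the animals cows, and the labels give no breed or age. Column extraction (RNeasy Mini) was used for the controls, while the treated samples went through TRIzol and a cleanup column (RNeasy MinElute), so treatment and extraction method cannot be told apart. The protocol text attached to the controls describes the growth promoters Finaplix (92 days) and Revalor (89 days), the latter also with dexamethasone (0.7 mg per day, 40 days), while each of these samples is labelled CONTROL. Animals carry the names of their labels, C for controls and P for treated animals. Levels are log2 intensities after the 75th percentile of every array was set equal.

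Sperm form in the testis, where haploid germ cells called spermatids replace histones with protamines, build a flagellum around an axoneme, and grow an acrosome, the vesicle that opens at fertilization. Many genes of this programme are transcribed almost only in these cells. Skeletal muscle is built from contractile fibres, and most of its markers were bright in these samples. Of 16 skeletal muscle markers on the array, 15, such as ACTA1 and CKM, lay well above background on all 8 treated arrays and CASQ1 on 0 of them. Their summed level (the log2 of summed linear intensity) ran from 21.03 to 21.40 in controls and from 20.99 to 21.29 in treated animals. The brightest markers set that sum. Single markers had a median range of 0.84 over the animals, with TNNT3 the widest, from 11.57 to 16.81. Listing controls as C17, C18, C20, C21, C22, C23 and C24 and treated animals as P25 to P32, an order kept throughout, PRM1 measured 11.37, 10.89, 17.84, 13.50, 16.43, 15.14 and 16.57 in the controls and 6.78, 8.98, 2.25, 3.94, 9.77, 14.74, 17.48 and 12.11 in the treated animals. In bulk tissue, fewer cells of a type and less RNA per cell cannot be told apart, and the source of the germ cell transcripts in these samples was not tested.

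**Figure D1:**
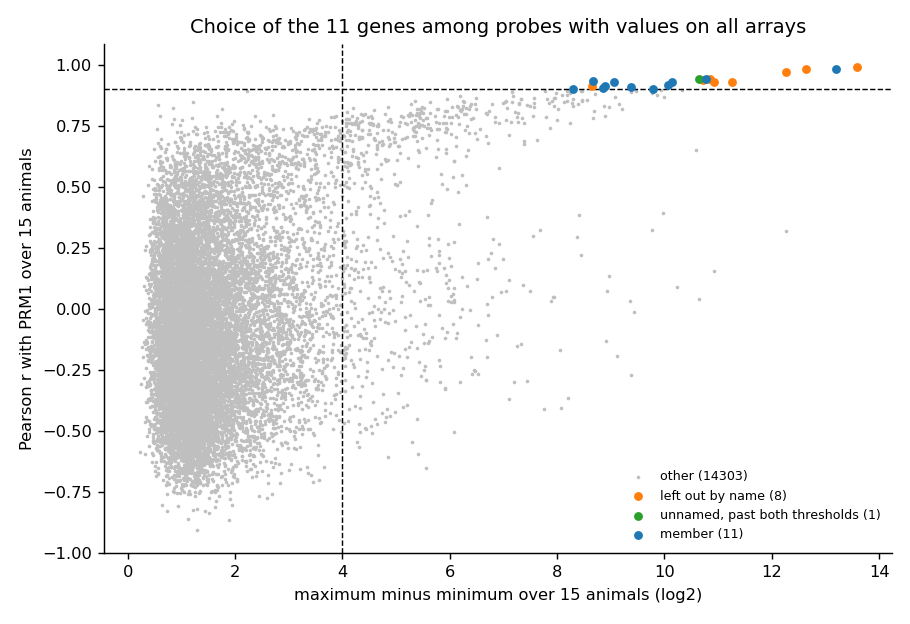
Each point is 1 of the probes with values on all 15 arrays except PRM1 itself, with its range over the animals on the horizontal axis (log2) and its Pearson r with PRM1 on the vertical axis. Dashed lines mark 0.9 and 4; the 11 genes sit above an r of 0.9 with ranges of 8.29 to 13.19, and no probe had an r of 0.9 or more with a range under 4.

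The 11 genes were selected on these 2 values, the correlation and the range, which are given as a description. The lowest r among the 11 belonged to FATE1 (0.90), SPATA3 (0.901) and LYPD4 (0.905). Just outside lay ACTL7B (0.895), an actin-like protein of the spermatid head, DNAI3 (0.894), an intermediate chain of axonemal dynein, and EQTN (0.893), a protein of the acrosome membrane. The range threshold removed nothing, since 0 probes with an r of 0.9 or more had a range under 4. The smallest ranges were those of FATE1 (8.29), SOCS7 (8.68) and LYPD4 (8.86).

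Genes of the sperm tail are DNAAF1, LRRC23 and SPATA6. DNAAF1, also known as LRRC50 and the closest to PRM1 of the 11, is a factor that assembles dynein arms for cilia and flagella in the cytoplasm; its probe is A_73_120938, with an r of 0.982. It measured 7.14, 7.53, 15.34, 10.21, 12.69, 10.90 and 12.59 in the controls and 3.91, 6.0, 2.15, 2.20, 6.82, 11.59, 14.8 and 8.92 in the treated animals, with medians of 10.90 and 6.41. The treated group thus held both the lowest animals and the second highest, and the groups overlapped over most of the control range. LRRC23, a protein of the radial spokes inside the sperm flagellum (probe A_73_114423, r 0.916), had medians of 9.40 in controls and 4.45 in treated animals. Its levels were 5.14, 5.18, 12.93, 8.31, 10.48, 9.40 and 10.50 in the controls and 2.86, 4.25, 4.0, 3.21, 4.65, 8.90, 11.67 and 6.22 in the treated animals. SPATA6, needed for the connecting piece that joins sperm head and tail (probe A_73_104065, r 0.930), had medians of 10.55 and 6.60. SPATA6 stood at 7.76, 7.12, 14.52, 9.31, 11.98, 10.55 and 12.20 in the controls and 5.65, 6.54, 5.46, 5.47, 6.65, 10.66, 13.66 and 8.36 in the treated animals, and never under 5.46. SPATA6 was the 1 gene of the 11 whose probe lay well above background on all 8 treated arrays, so its whole range was measured there.

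LYPD4 encodes a sperm surface protein of the Ly6 family that male mice need for fertility (probe A_73_112385, r 0.905). LYPD4 measured 3.94, 4.46, 10.97, 6.15, 8.12, 7.42 and 8.13 in the controls and 2.93, 2.66, 2.1, 3.39, 4.14, 7.24, 10.57 and 4.83 in the treated animals, with medians of 7.42 and 3.77. P31 came close to C20, the highest animal, and 4 treated animals lay below the lowest control. On the arrays of those 4 animals LYPD4 was not well above background.

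Among the signalling genes, RGS22, a member of the family that shuts off G proteins (probe A_73_111109, r 0.909), had medians of 7.09 in controls and 1.84 in treated animals. RGS22 was at 3.21, 3.30, 10.88, 5.83, 8.44, 7.09 and 8.65 in the controls and 1.88, 1.74, 1.55, 1.49, 1.80, 6.71, 10.01 and 3.88 in the treated animals. Of these, P25, P26, P27, P28 and P29 all lay between 1.49 and 1.88. On these 5 arrays it was not well above background. SOCS7, an adaptor of the suppressor of cytokine signalling family (probe A_73_108928, r 0.932), had medians of 6.15 and 3.13. SOCS7 was at 5.68, 3.63, 10.0, 5.11, 7.89, 6.15 and 7.15 in the controls and 2.12, 2.85, 1.32, 1.62, 3.64, 6.30, 9.01 and 3.42 in the treated animals. Its order departed from that of PRM1 within the controls, where C17 stood at 5.68, above C21 at 5.11, whereas PRM1 was lower in C17 (11.37) than in C21 (13.50).

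The genes that follow carry names from the testis. SPATA21 (probe A_73_104523, r 0.911), named through the array description alone, had medians of 7.31 in controls and 3.36 in treated animals. Values were 3.49, 4.0, 10.98, 6.04, 8.36, 7.31 and 8.33 in the controls and 2.62, 3.77, 2.69, 2.10, 2.94, 7.16, 10.09 and 5.41 in the treated animals. SPATA3 (probe A_73_111374, r 0.901), described on the array as a spermatogenesis cell apoptosis related protein, had medians of 9.12 and 3.98. SPATA3 measured 5.26, 4.30, 12.43, 7.41, 10.21, 9.12 and 9.96 in the controls and 3.22, 3.15, 4.02, 2.65, 3.94, 8.31, 11.44 and 5.95 in the treated animals. For both genes P32 and P30 were the treated animals next after P31, and the others lay at 4.02 or lower. FATE1, a cancer-testis antigen that sits where mitochondria meet the endoplasmic reticulum (probe A_73_108132, r 0.90), had medians of 8.74 and 5.14. FATE1 stood at 6.5, 5.83, 12.18, 7.67, 9.84, 8.74 and 10.19 in the controls and 3.89, 5.16, 4.65, 4.8, 5.13, 8.56, 12.09 and 6.38 in the treated animals. FATE1 had its highest treated animal, P31, only 0.09 below C20, the closest approach of these 2 animals among the 11 genes.

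The remaining genes were GSTT4, a glutathione transferase of the theta class, and HDGFL1, a relative of hepatoma-derived growth factor. GSTT4 (probe A_73_120984, r 0.941) had medians of 8.22 in controls and 3.86 in treated animals, under an array description that names another theta class member. GSTT4 was at 4.61, 4.17, 12.13, 6.71, 9.64, 8.22 and 9.67 in the controls and 2.71, 3.45, 2.46, 1.35, 4.28, 8.24, 11.36 and 5.62 in the treated animals. HDGFL1 (probe A_73_111706, r 0.929) had medians of 8.53 and 4.93. HDGFL1 was at 5.62, 5.92, 13.40, 7.79, 10.63, 8.53 and 10.60 in the controls and 4.36, 4.85, 3.45, 3.26, 5.0, 9.85, 13.24 and 7.26 in the treated animals. In both, C20 and P31 were the highest animals, followed by C22 and C24 in either order.

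**Figure D2:**
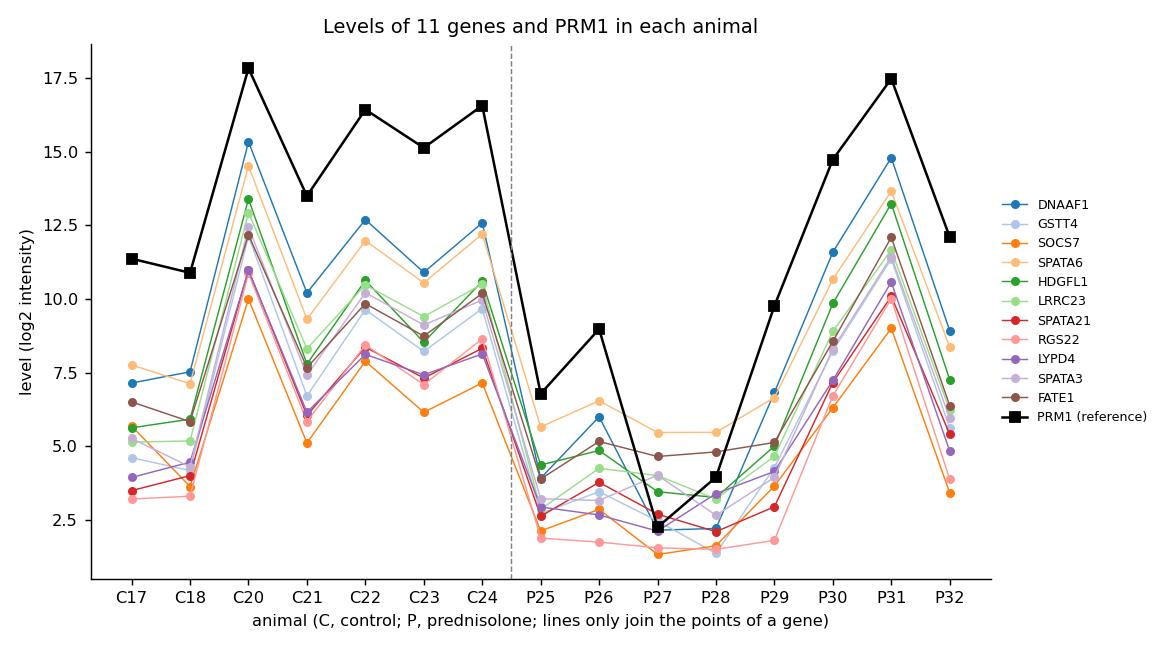
The horizontal axis gives the 15 animals, controls left of the dashed line and treated animals right of it, and the vertical axis the log2 intensity of each of the 11 genes (coloured) and PRM1 (black). All 11 genes peak in C20 and next in P31, and each is lowest in P25, P27 or P28, where most of the 11 were not well above background.

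The animals kept their places from gene to gene, which the choice of genes by their r with PRM1 largely fixed in advance. PRM1 itself was highest in C20, P31, C24 and C22. C20 was the highest animal for 11 of 11 genes and P31 the second, and C22 and C24 filled the next places in 11 of 11. At the other end, P25, P27 and P28 were among the lowest 5 animals for 11 genes, P26 for 10 and P29 for 8. Between the controls C20 and C24, all 11 genes dropped by 1.99 to 2.85, more than PRM1, which dropped by 1.27. Between C20 and C21 PRM1 dropped by 4.34 and the 11 genes by 4.51 to 5.61.

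At the low end many values lay below detection. The lowest level that the scanner software called well above background lay between 3.45 and 4.05 on the treated arrays. Of the 8 treated arrays, SOCS7 and RGS22 were well above background on 2 (P30 and P31), SPATA21 on 3, GSTT4, LYPD4 and SPATA3 on 4, DNAAF1 and LRRC23 on 5, HDGFL1 on 6 and FATE1 on 7. PRM1 was so on 6 of them, all but P27 and P28. On P27 and P28 the flag was met by 2 of the 11 genes, SPATA6 and FATE1, so differences and order among the other genes' values there are not interpretable. No spot of these probes was saturated on a treated array. The flags of the control arrays were not analysed here.

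**Figure D3:**
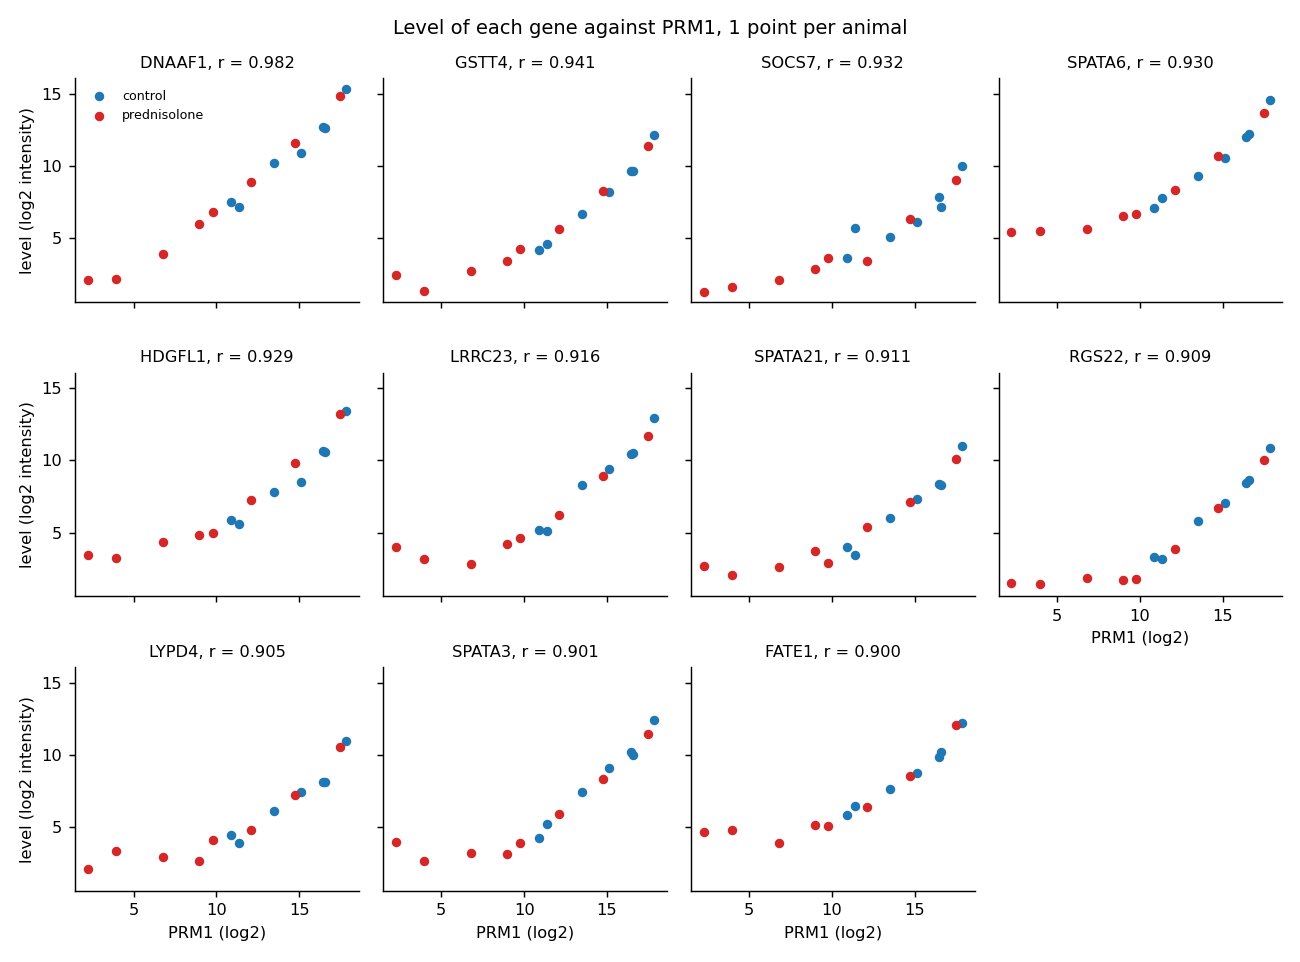
Each panel plots the log2 intensity of 1 gene against that of PRM1 in the 15 animals (blue, control; red, prednisolone). From a PRM1 level of 10.89 upward the points of both groups intermingle, and below it all are treated animals; the points lie nearly on a line for DNAAF1 (r 0.982) and flatten at low PRM1 for FATE1 (r 0.90) and SPATA3 (r 0.901), where PRM1 was not well above background on P27 and P28.

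Spearman's rho with PRM1 ran from 0.957 for SPATA3 to 0.996 for SPATA6, higher than Pearson's r for 11 of 11 genes. In the line fitted to each gene against PRM1, the gene rose by 0.51 (FATE1) to 0.86 (DNAAF1) log2 units for each log2 unit of PRM1. These r, rho and slopes include the values below detection. These correlations were part of the choice of the genes or rest on the same 15 arrays, so they carry no test.

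The 11 genes resembled each other more closely than they resembled PRM1, with which their median r was 0.916. Likeness among them is partly built in, since all were chosen by their r with PRM1. All but SOCS7 and LYPD4 lay farthest above their line against PRM1 in P27, where PRM1 was not well above background. How much values below detection add to this contrast was not tested. Over the 55 pairs the median r was 0.981, from 0.941 between SOCS7 and SPATA21 to 0.995 between GSTT4 and SPATA6. Within the 7 controls alone, r with PRM1 ran from 0.895 for SOCS7 to 0.992 for SPATA3. Within the 8 treated animals it ran from 0.860 for FATE1 to 0.986 for DNAAF1. SPATA3 had the highest r of the 11 in controls and, at 0.863, the second lowest in treated animals; whether the groups differ in this was not tested. Without C20 and P31, r ran from 0.878 for SPATA3 to 0.987 for DNAAF1.

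The treated arrays came from 5 slides. On 1 of them P30 exceeded its slide neighbour P29 for all 11 genes, by 2.66 (SOCS7) to 4.91 (RGS22), and for PRM1 by 4.97. P25 and P26, on another slide, differed by a median of 0.74 (P26 minus P25), and P27 and P28 by a median of -0.05 (P28 minus P27). On each of P25, P27 and P28 only 2 of the 11 genes were well above background. Both medians thus rest mostly on values below detection and are not interpretable. P31 and P32 were each the only array given here from their slide. The slides of the controls were not analysed here.

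The group comparison asks whether prednisolone shifted these genes. All 11 were lower on average in treated animals, with a median log2 difference of -2.73, but none passed the test. Limma gave an adjusted p of 0.993 for each, 0 of 11 were called against 0% of all 20894 probes tested, and the groups overlapped for 11 of 11 genes (0% of the 14324 probes with values on all arrays had groups that did not overlap). PRM1 itself was lower by 5.03 (95% interval -9.37 to -0.69, limma adjusted p = 0.993), and since the 11 genes were picked to follow it, their differences repeat 1 pattern and are not 11 separate results. In single animals, 4 or 5 of the 8 treated animals, depending on the gene, lay below the lowest control, while P31 exceeded 6 of 7 controls for every gene. For RGS22, SPATA21, SOCS7 and LYPD4 the lowest control was itself low, at 3.21, 3.49, 3.63 and 3.94. The treated values below it were not well above background, so for these genes the count is not interpretable.

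DNAAF1 averaged 10.91 ± 2.94 (SD, n = 7) among controls and 7.05 ± 4.52 (SD, n = 8) under prednisolone, a limma difference of -3.87 with a 95% interval from -7.83 to 0.10. RGS22 averaged 6.77 ± 2.85 among controls and 3.63 ± 3.14 under prednisolone, which differ by -3.14 (95% interval -6.23 to -0.05). SOCS7 averaged 6.51 ± 2.06 and 3.79 ± 2.62, which differ by -2.73 (95% interval -5.18 to -0.28). For RGS22 and SOCS7, 6 of the 8 treated values were not well above background. SPATA6, well above background on all 8 treated arrays, differed by -2.68 (95% interval -5.57 to 0.21), from 10.49 ± 2.63 in controls to 7.81 ± 2.96 in treated animals. The smallest difference was that of LYPD4, at -2.29 (95% interval -5.02 to 0.44). The SD among treated animals ran from 2.62 (SOCS7) to 4.52 (DNAAF1), against differences of -2.29 to -3.87.

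Before adjustment 3 of 11 genes, SOCS7, LRRC23 and RGS22, had a limma p under 0.05 and were lower, against 1.72% of all tested probes lower and 3.35% in either direction. After adjustment limma gave these 3 genes 0.993 as it did the rest. With the exact Wilcoxon test, which uses ranks alone, FATE1 was the 1 gene under that value (two-sided exact p = 0.0401), against 2.92% of all tested probes in either direction, and 0 probes passed after adjustment. Without C20 and P31 the median difference over the 11 genes was -2.89, and again 0 were called.

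**Figure D4:**
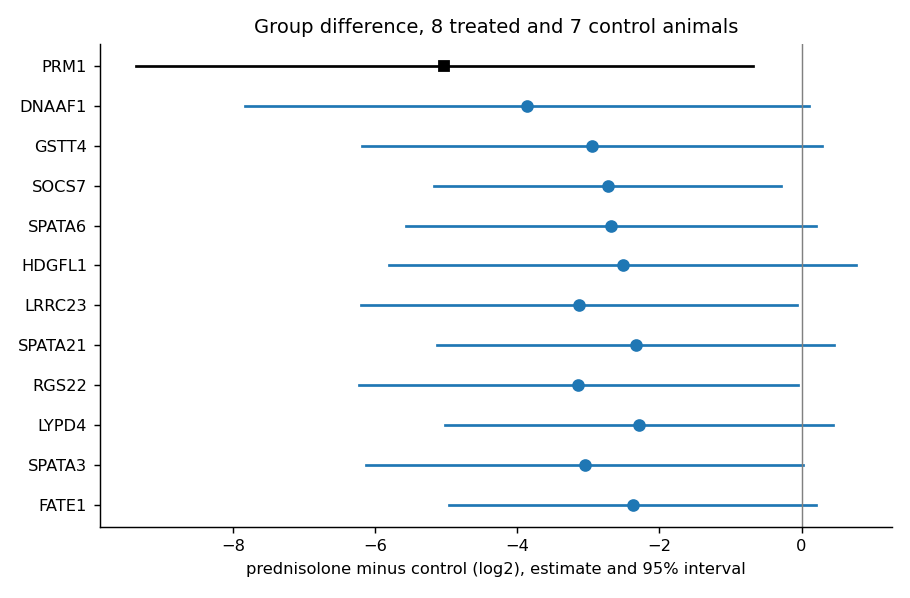
The limma estimate of prednisolone minus control (log2) with its 95% confidence interval is drawn for PRM1 (black square) and the 11 genes (blue), from 8 treated and 7 control animals. All estimates are negative, from -2.29 for LYPD4 to -3.87 for DNAAF1 among the 11 genes, and 8 of their 11 intervals include 0.

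A measurement that the rule did not use came from a second probe of RGS22, the 1 gene of the 11 with another probe. That probe (A_73_111105) had values on 13 arrays and lay between 1.39 and 3.12 on 11 of them. The exceptions were C20 at 5.65 and P31 at 4.63, the animals in which the other RGS22 probe was also highest. Over the 13 arrays its r with PRM1 was 0.515, and it was well above background on 1 of 8 treated arrays.

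Other genes of sperm formation, from 8 lists, followed PRM1 to different degrees. Over the 11198 named genes with values on all arrays, 2.91% had an r of 0.7 or more with PRM1 and the median r was -0.09. The genes of a list share arrays and RNA, so these counts describe the lists without a test, and a gene counts through its brightest probe. Only genes with values on all arrays have an r. They were 23 of 55 tail genes on the array, 9 of 30 acrosome, 14 of 24 chromatin and 16 of 29 kinase genes. For RNA regulators, meiosis, energy enzymes and spermatogonia they were 17 of 36, 9 of 21, 10 of 15 and 7 of 13. Among genes without an r, HMGB4 ranged from 1.42 to 14.48, highest in C20, while SPAM1 never exceeded 1.77. The shares below therefore do not rank the lists. Limma called 0 genes of these 8 lists in either direction; over all genes tested the median group difference was 0.01 and 47.9% were lower in treated animals.

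Apart from SPATA6 and SPATA3, which were selected on r, 6 of 12 spermatid chromatin and nuclear shaping genes had an r of 0.7 or more. ACTL7B (0.895), SPAG4 (0.851), which anchors the sperm tail at the nuclear envelope, and ACTL7A (0.841), an actin-related protein under the acrosome, had the highest. Of acrosome and egg binding genes 5 of 9 did so, with EQTN (0.893), the sperm protein IZUMO4 (0.890) and SPATA16 (0.765), which is needed to form the acrosome. Sperm axoneme and tail genes had 10 of 23, led by the microtubule proteins TEKT2 (0.877), TEKT4 (0.851) and SPMIP6 (0.844). Their ranges over the animals were 8.18, 8.47 and 7.58, and the group difference was negative for 44 of 54 tested genes, with a median of -1.06. It was negative for 20 of 24 chromatin genes, SPATA6 and SPATA3 included (median -1.47), and 25 of 29 acrosome genes (median -1.35).

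Testis kinase and signalling genes had 8 of 16 at that level, with ASB17 (0.855), ASB9 (0.791) and the actin bundler FSCN3 (0.791). Germ cell RNA regulators had 5 of 17, with the helicases DDX25 (0.865) and DDX4 (0.851) and the Tudor protein TDRD6 (0.832). Of genes of meiosis, the division that precedes spermatids, 2 of 9 did so, SYCE1 (0.832) and HORMAD1 (0.783), both of the meiotic chromosome axis or synapsis, while HSPA2, the next, was at 0.593. Energy enzymes of germ cells had 0 of 10, with GK2 (0.697), HK1 (0.654) and SLC2A5 (0.600) highest, and 13 of 15 tested had a negative difference (median -0.17). The 10 include PGAM2, ALDOA and TPI1, which lay between 17.22 and 18.69 in every animal. Those without an r were ACSBG2 (up to 10.75), LDHAL6B (up to 9.04), ATP1A4 (up to 8.00), SLC25A31 (up to 6.64) and GAPDHS (up to 4.48). Each of these was highest in C20, as PRM1 was, and the 0 of 10 does not cover them. Spermatogonial genes, which mark the dividing stem and progenitor cells, had 0 of 7, with ZBTB16 (0.396), KIT (0.299) and ETV5 (0.0912) highest, and 6 of 13 tested had a negative difference (median 0.01). Differences were negative for 24 of 29 kinase and signalling genes (median -0.65), 28 of 36 RNA regulators (median -0.29) and 16 of 21 meiosis genes (median -0.33).

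**Figure D5:**
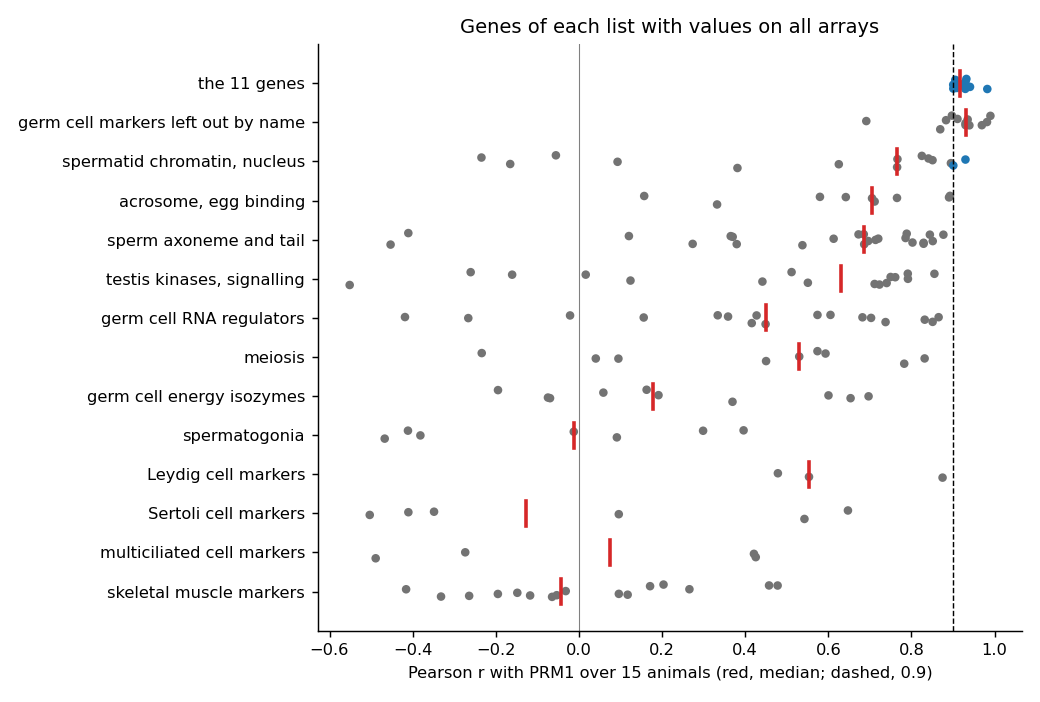
Each point is 1 gene with values on all 15 arrays, placed by its Pearson r with PRM1. Rows are the 11 genes, the germ cell markers left out by name and the 8 lists of sperm formation. Further rows hold markers of Leydig, Sertoli, multiciliated and skeletal muscle cells, and the other marker lists are not drawn. Red bars are medians, blue points the 11 genes, and the dashed line marks 0.9 (PRM1 itself is not drawn). The chromatin list and its median include SPATA6 and SPATA3 of the 11. Other genes of the 8 lists lie under 0.9 by construction, since the rule would have taken them. Spermatogonial and skeletal muscle genes centre near 0 (medians -0.01 and -0.04).

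Markers of other cells moved with the 11 genes only in part, and their part in the result was not tested. Of the 18 germ cell markers left out by name, PRM1 included, 13 had values on all arrays and 12 of these had an r of 0.7 or more. The summed level of those 13 ran from 11.76 to 18.74 in controls and from 9.37 to 18.15 in treated animals, highest in C20. Among 8 markers of Leydig cells, the hormone-producing cells of testis, INSL3 had an r of 0.875 and was highest in P31 at 15.11, while LHCGR, NR5A1 and AMHR2 were well above background on 0 of 8 treated arrays. STAR (r 0.553) and CYP17A1 (r 0.479) were the other Leydig cell markers with values on all arrays, and their summed level with INSL3 ran from 8.11 to 14.36 in controls and from 7.93 to 15.15 in treated animals. At its highest, in P31, that sum is nearly INSL3 alone. CYP17A1 (up to 9.10) and CYP11A1 (up to 6.86) were also highest in P31, where the 11 genes were second highest. STAR and HSD3B1 (up to 9.97) were highest in P26, where the 11 genes had a median level of 3.77, against 12.18 in C20. LHCGR, NR5A1 and AMHR2 peaked in P25, P27 and C18.

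Sertoli cells, which nurse the germ cells, were covered by 13 markers. The 6 with values on all arrays had r between -0.50 and 0.65, and their summed level ran from 12.44 to 13.42 in controls and from 10.51 to 14.58 in treated animals, highest in P28, one of the animals in which the 11 genes were lowest. That sum is nearly INHA alone, at 14.49 in P28. Among the defining genes, AMH passed the background flag on 8 of the 8 treated arrays, SOX9 on 7, CLDN11 on 5, GATA4 on 4, FSHR on 1, and WT1 and DMRT1 on 0. SOX9, CLDN11, GATA4, FSHR, AARD and SLC7A5 were each highest in P31, where the 11 genes were second highest, FSHR reaching only 3.97. The other markers peaked elsewhere, AMH (r -0.35) and SHBG (r -0.50) in P29, INHA in P28, INHBB in P30 and TF in P26. WT1 and DMRT1 peaked in C20, at 3.15 and 2.61. Of 8 epididymis markers, 6 were above background on 0 treated arrays, and the 1 with values on all arrays, CST8, had an r of 0.02. Multiciliated cells share axoneme genes with sperm, and 0 of the 4 of their markers with values on all arrays had an r of 0.7 or more. FOXJ1, their master regulator, had an r of -0.49. Among their markers without an r, RSPH1 (up to 8.76), TEKT1 (up to 8.08) and HYDIN (up to 3.69) were highest in C20. SPAG6 (up to 9.51) was highest in P31 and DNAH5 (up to 3.28) in P27. Of 9 oocyte markers, GDF9 alone of the 4 with values on all arrays reached 0.7 (r 0.717), with a range of 1.87, against 8.29 or more for the 11 genes. Markers of thymocytes (10 genes), hepatocytes (8) and adrenal cortex (5) had median r of 0.12, -0.37 and 0.04, and 0 of them reached 0.7. Just under it were the hepatocyte markers APOA1 (r 0.6997, highest in P31) and F2 (r 0.690, range 7.62, highest in C20). Every other hepatocyte marker with an r had a negative one.

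In the gene order of the ARS-UCD2.0 annotation, the 22 nearest measured genes on either side of the 11, of which 7 were the adjacent gene and the others up to 16 genes away, had r between -0.86 and 0.72. ADAD2, a germ cell RNA-binding protein near DNAAF1, had the highest r (0.724, range 3.68), and FBXO43, a meiotic regulator near RGS22, the next (0.657, range 5.57). The nearest measured on either side of SOCS7 were MRPL45 (r -0.53) and ARHGAP23 (r 0.07), and LRRC23 lay between the enolase gene ENO2 (r -0.34) and SPSB2 (r 0.07). No sequence of these genes or probes is shown, since none was given with the files used here.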

How the data were processed

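Biceps brachii RNA of 7 control and 8 prednisolone-treated cattle was measured on 1-colour Agilent arrays, 1 per animal. The deposited table holds linear spot intensity for 42990 non-control spots. Per the design text it derives from the background-subtracted, detrended signal of Feature Extraction 9.5 (9.5.1.1 per the file headers of the treated arrays), and the submitters' processing notes list R 2.11.1. No source used here states how arrays were scaled against each other. Deposited scanner output of the treated arrays gave detection and saturation flags, and intensity for an alternative.

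Values were taken as log2, the 75th percentile over the 14324 complete probes was set equal, and the 2 spots of a probe were averaged. Between 72.1% and 87.4% of spots had a value. A probe was well above background where both spots carried the flag. Names came from gene identifiers (9717 probes), accessions (3398), array gene names (383) or array descriptions; 4375 probes stayed unnamed. Groups were compared with limma 3.58.1 in R 4.3.3 (lmFit and eBayes, at least 3 values per group, Benjamini-Hochberg over 20894 probes, threshold 0.05). The code was tried on simulated data with independent noise for each probe and array, which lack the animal-to-animal pattern that these genes share. The number of arrays limits the precision, and nothing in the labels says more than that each array is 1 animal. Every gene of the 11 was named; genes named beside them were the 3 per list with the highest r, the 3 next to a threshold, and, chosen after their values were seen, single markers and neighbours. The members, lists and tests were chosen with earlier results of these data known.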

Additional observations from a re-analysis of the deposited data

How the results depend on the processing

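Which genes follow PRM1 at an r of 0.9 depended on the processing more than the direction of their group difference did. In place of 11 genes (and as many probes), quantile normalization gave 6, an r threshold of 0.85 gave 39 and one of 0.95 gave 1, Spearman's rho gave 85, deviations from the group means gave 5, and probes with at least 3 values per group gave 53. Leaving out 1 animal at a time gave 8 to 32 genes, with 21 without C17, 32 without P27 and 17 without P28. DNAAF1 passed under 28 of 28 alternatives and SPATA3 and FATE1 under 15, not counting the mean of all PRM1 probes, which is the same 1 probe. All 254 combinations of gene and setting were lower in treated animals, and 0 passed (lowest limma adjusted p 0.653). These are not separate results. The settings reuse nearly the same arrays, and the genes were picked to follow PRM1, whose difference ran from -6.51 to -3.99 over the settings. The median difference ran from -3.52 to -2.15 with 1 animal left out, and was -3.56 with array weights. RGS22 moved to -1.84 as the mean of both its probes. Over all probes limma called 0 to 1 with 1 animal left out (1 without C23, 1 without P31) and 1 without C20 and P31; these were probes of ZNF696 or PZP. The causes were not tested. A filter for probes well above background left SPATA6 alone. The slide block was not run, since slides of the controls were not analysed here. No paired analysis was possible because the groups share no animal numbers. Levels below the detection limit have no reliable order.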
